A study of Mus musculus with 59 samples.

Results

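The 52 probes described here were selected for lower log ratios in melan-a cells after 3 and 4 days with agouti signaling protein (ASP) than in untreated cells, with little change at 3 h and 1 day. They are 52 of the 18694 probes that had a value on every array, in a table of 38591 probes. To select them, each array was centred on its median, and the arrays with treated RNA in Cy5 and those with it in Cy3 were averaged with equal weight. A probe was taken if the resulting log2 ratio with ASP was -0.6 or less at both 3 d and 4 d and smaller in size than 0.3 at both 3 h and 1 d. In addition, the mean of 3 d and 4 d with alpha-melanocyte stimulating hormone (α-MSH) had to be smaller in size than 0.4. Of 257 probes at or below -0.6 at both late ASP times, 164 were at -0.3 or lower at 1 d, and 62 were small at both 3 h and 1 d. The limit on α-MSH removed 10 of these.

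Melan-a cells are pigmented mouse melanocytes of C57BL6 origin that grow without limit in culture. They were treated with recombinant murine ASP at 10 nM or with α-MSH at 100 nM for 3 h or 1, 2, 3 or 4 d, and treated and untreated RNA were hybridised together on arrays with 2 channels, so that every group is compared with untreated melan-a cells. The 59 arrays form 10 groups of 3 biological replicates, each replicate a pair of arrays of opposite dye orientation, except that ASP at 2 d had 5 arrays, of which 2 carried treated RNA in Cy5 and 3 in Cy3. It is not stated which arrays form a pair or whether the times shared untreated RNA, and all cells are of a single line. Each value is a log ratio. Base 2 and treated over untreated were assumed, since neither base nor numerator is stated, and with the numerator exchanged every "lower" here would read "higher". Between 22218 and 38371 probes had a value on an array. The number of arrays limits the precision.

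α-MSH activates the melanocortin 1 receptor of melanocytes, which raises cAMP and, through the transcription factor MITF, the enzymes that make dark eumelanin. ASP binds the same receptor, opposes this signal and turns pigment synthesis towards yellow pheomelanin. ASP also lowers the signal of the receptor in the absence of hormone. The value table pairs probe numbers with no gene, so the probes are given by number, neither their genes nor their sequences are described here, and the labelled cell type was not checked against its markers.

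The description "lowered only late" was not borne out by most ASP arrays of 1 d. In the 3 replicates at 1 d, with the dye effect of each probe removed, the median of the 52 probes was 0.33, -0.35 and -0.40, and 5, 48 and 47 of them lay below 0. Replicate 1 was thus high and the other two were low, and 41 probes were above 0 in replicate 1 and below 0 in both others. In replicate 1 the median over the 18694 probes was high as well, at 0.51, compared with -0.05 in each of the other replicates. That replicate holds an array with treated RNA in Cy5 whose median before centring was -1.44, while the other 5 arrays had medians, as Cy5 over Cy3, of -0.37 to -0.06. On that array the 52 probes had a centred median of 1.04 and the 18694 probes one of 1.25. Without this array, the median of the 52 at 1 d was -0.36 (range -0.56 to 0.13, 5 arrays) in place of -0.15 (range -0.29 to 0.24, 6 arrays), and 50 of 52 lay below 0. On those 5 arrays 30 of the 52 were at -0.3 or lower and would not have been selected, and none was at -0.6 or lower. Of the 18694 probes, 11% were at -0.3 or lower on the same 5 arrays, and 11091 lay below 0. Their median was 0.13 on the 6 arrays and -0.05 on the 5, so the bulk moved down without that array as well. The remaining 22 are the probes for which the selection did not rest on that array. The array was left out after its values were seen.

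The time course under ASP ran from no shift at 3 h to the selected depth at 3 d. Values at 3 h, 1 d, 3 d and 4 d chose the probes and are given as a description. At 3 h the median of the 52 was 0.04, with 22 of 52 below 0. By replicate the medians were -0.05, 0.17 and -0.01, and those of the 18694 probes were 0.00, 0.17 and -0.10. At 3 d the median was -0.78 (range -1.67 to -0.61) and at 4 d -0.72 (range -1.61 to -0.60). All 52 lay below 0 in each of the 3 replicates of 3 d and of 4 d. The replicate medians were -0.75, -0.90 and -0.80 at 3 d and -0.63, -0.81 and -0.79 at 4 d. The median over the 52 probes of the SD between replicates was 0.19 for 3 d, 0.21 for 4 d and 0.44 at 1 d. In a linear model across all probes (limma, Benjamini-Hochberg adjusted p below 0.05), 52 of 52 were called lower at 3 d, where 4.83% of all tested probes were lower and 7.39% higher. At 4 d 46 of 52 were called lower, where 1.84% of all were lower and 3.84% higher. None of the 52 was called at 3 h, with 0.365% lower and 0.0574% higher among all, or at 1 d, with 0.165% lower and 0.584% higher. These counts follow from the selection. In RNA of whole cultures, fewer cells of a kind and less RNA per cell cannot be told apart.

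The depth was similar in most of the probes, with a few lower ones. The mean of 3 d and 4 d had a median of -0.77 over the 52, and only 5 probes were at -1 or lower. Probe 1776151_1 was the deepest by this mean, at -1.37, -2.05 and -1.61 in the replicates of 3 d and -1.76, -1.85 and -1.11 in those of 4 d. It stood at 0.03, 0.23 and 0.55 at 3 h and at 0.28, -0.31 and -0.74 at 1 d. The rule limited the means at all of these times, so nothing is read from the gap between early and late replicates. Probe 1795557_1 stood at -1.55, -1.26 and -1.06 at 3 d and at -0.63, -1.35 and -1.36 at 4 d. The replicates of the 2 times overlapped in this probe. Probe 1768280_1 was at -1.44, -1.11 and -1.11 at 3 d and -1.19, -1.59 and -0.80 at 4 d. Probe 1778429_1 had the closest replicates of these at 3 d, -1.08, -1.08 and -1.13, and was at -0.97, -1.12 and -1.50 at 4 d.

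Probe 1765830_1 differed from these in its order of times. It was at -0.56, -0.995 and -0.72 at 3 d and at -1.52, -1.83 and -1.47 at 4 d, so that every replicate of 4 d was lower than every replicate of 3 d. Probe 1765579_1 had the same order, at -0.39, -0.79 and -0.65 at 3 d and -1.20, -0.92 and -0.98 at 4 d. Both times were used in the selection, and how often this order occurs over all probes was not counted. Nothing is therefore read from it. In all, 32 of the 52 were lower at 3 d than at 4 d. The deepest of the 5 times was 3 d in 29 probes, 4 d in 18 and 2 d in 5.

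The threshold at 3 d and 4 d cut through a continuous range. Just inside it were probes 1789345_1, at -0.60 at 4 d, 1770328_1, at -0.61 at 3 d, and 1765579_1, at -0.61 at 3 d. Just outside were 1764068_1, at -0.60 (unrounded above -0.6) and 1785881_1, at -0.59, both at 3 d, and 1784563_1, at -0.59 at 4 d. A threshold of -0.5 would have taken 135 probes and one of -0.7 only 25.

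The ratios of ASP at 2 d had no part in the selection, apart from the need for a value on every array. They show the same probes already lower. The dye effect removed from them was estimated over all ASP times, also those of the selection. The mean over the 3 replicates was below 0 for 51 of the 52 probes, with a median of -0.47, or 1.38-fold lower, and it was below 0 in 3 of 3 replicates for 43 of them. The replicate medians were -0.51, -0.61 and -0.35, and those of the 18694 probes were -0.09, 0.01 and 0.17, so that the selected probes were lower than the bulk in each replicate. Limma called 15 of the 52 lower and 0 higher at 2 d, whereas it called 1.2% of all 33270 tested probes lower and 1.76% higher. Without the 1 d array, which shares the estimate of the dye effect and of the spread, it called 18 lower and 0 higher. There 1.72% of all tested probes were lower and 2.35% higher. At an unadjusted p under 0.05, with every array kept, there were 32 of 52 lower and 0 higher. Of all tested probes, 7.39% and 8.07% were. The median over all tested probes was 0.00.

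The calls at 2 d depended on the replicates and on how the spread was estimated. Without replicate 2, 8 of the 15 were called, where 0.757% of all tested probes were called lower. With the spread taken from ASP replicates alone, 9 of the 52 passed, where 0.352% of all tested probes were called lower. With that of the 2 d replicates alone 0 passed, as did 0 of all tested probes. Replicate 3 is a lone array with treated RNA in Cy3, whose value rests on the dye effect estimated from the other ASP arrays. Without it, 11 passed, where 0.713% of all tested probes were called lower. Whether 2 d shared untreated RNA with 3 d or 4 d is not stated, and the part of shared RNA was not tested.

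The probe deepest in the mean of 3 d and 4 d was also deepest at 2 d. Probe 1776151_1 was at -1.13, -1.36 and -1.27 in the replicates of 2 d, a mean of -1.25 ± 0.11 (SD, n = 3) or 2.38-fold lower (limma adjusted p = 0.00046). Its single arrays lay further apart, also after removal of the dye effect. They were at -1.99 and -2.14 with treated RNA in Cy5 and at -0.27, -0.58 and -1.27 with it in Cy3. Probe 1776151_1 was also among the 7 probes that passed whichever replicate of 2 d was left out. The others of these 7 were 1776284_1, 1783616_1, 1770220_1, 1776654_1, 1772142_1 and 1784268_1. Probe 1776284_1 was at -0.83, -0.80 and -1.16 at 2 d (limma adjusted p = 0.0013). By array it was at -1.56 and -1.11 with treated RNA in Cy5 and at -0.10, -0.50 and -1.16 with it in Cy3. At 3 d it was at -0.66, -0.97 and -0.39, within the range of its 2 d replicates or higher, so that it was no lower at 3 d than at 2 d.

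For others of the 7, 2 d and a later time also gave like values. Probe 1783616_1 was at -0.93, -0.78 and -0.69 at 2 d and -0.76, -0.98 and -0.74 at 3 d (limma adjusted p at 2 d = 0.0025). Probe 1770220_1 was at -0.90, -0.67 and -1.07 at 2 d and -0.89, -1.12 and -1.11 at 4 d (limma adjusted p at 2 d = 0.0033). In both, the replicates of the 2 times overlapped.

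Probe 1784268_1 had the smallest spread among the probes called, at -0.64, -0.72 and -0.70 at 2 d (SD 0.04, n = 3, limma adjusted p = 0.0019). Its replicates at 3 d, -0.80, -0.94 and -1.20, were all lower than those at 2 d. The rule limited the 3 d mean, so nothing is read from this order. Probe 1776654_1 was at -0.77, -0.86 and -0.72 and probe 1772142_1 at -0.85, -0.78 and -0.59 at 2 d (limma adjusted p = 0.0046 in each). The other 8 of the 15 were called with adjusted p between 0.011 and 0.035 and did not pass when at least 1 replicate was left out. Probe 1795557_1, second in depth at 2 d at -0.86, -1.19 and -1.001, was among them: it passed without replicate 1 only. Probe 1779914_1, at -0.68, -0.83 and -0.57, did not pass without replicate 2.

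A low mean did not suffice for a call. Probe 1787527_1 had the third lowest mean at 2 d, -0.94, but its replicates were -0.38, -1.07 and -1.36, and its limma adjusted p was 0.10. Probe 1778429_1 stood at -1.09, -0.65 and -0.35 (adjusted p = 0.15), and probe 1765830_1 at -0.71, -0.73 and -0.44 (adjusted p = 0.064). Probe 1768280_1 had replicates of -0.84, -0.61 and -0.07 (adjusted p = 0.28). In each of these all 3 replicates were below 0.

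At the other end, the 5 probes with the highest means at 2 d each had replicates on both sides of 0. Probe 1763674_1 was the only one with a mean above 0, with replicates of 0.05, -0.15 and 0.39 at 2 d against -0.37, -0.85 and -0.78 at 3 d. Probe 1765185_1 was at -0.21, 0.15 and -0.01 at 2 d and at -1.08, -0.96 and -0.66 at 3 d. Probe 1793626_1 was at 0.34, -0.35 and -0.12 at 2 d, followed by -0.75, -1.35 and -1.03 at 3 d. In these 3 probes no replicate of 3 d reached up to one of 2 d. They were picked for their high 2 d means and the rule held the 3 d means low, so nothing is read from this gap.

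Probe 1798143_1 stood at 0.05, -0.28 and 0.00 at 2 d and at -0.82, -0.53 and -0.73 at 3 d. Again there was no overlap, from which likewise nothing is read. Probe 1783084_1 stood at 0.25, -0.11 and -0.56 at 2 d and at -0.27, -0.95 and -0.71 at 3 d, where the 2 times overlapped. Probe 1782586_1, among the 10 deepest at 3 d and 4 d, likewise spanned 0 at 2 d, with 0.21, -0.25 and -0.48. By the average of both dye orientations used for the selection, the value at 2 d lay below 0 in all 52 probes. On that scale 22 of the 52 were at -0.6 or lower at 2 d, 16 between -0.6 and -0.3, and 14 above -0.3. Of the 18694 probes, 2.57% were at -0.6 or lower. The 2 d value reached a median of 70.2% of the mean of 3 d and 4 d. It was above both later values in 43 probes and below both in 5.

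The probes that kept their place without the 1 d array were lower at 2 d as well. The 22 had a median of -0.41 at 2 d (range -0.83 to -0.14), and 5 of them were called lower by limma, where 1.2% of all tested probes were. The other 30 had a median of -0.48 (range -1.25 to 0.10), with 10 called. The mean of 3 d and 4 d had a median of -0.77 in the 22 and of -0.78 in the other 30.

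Another pair of selections from the same table was set beside the 52 at 2 d, a time whose ratios none of them used. The 79 probes chosen by the mirror image of the rule, raised at 3 d and 4 d, had a median of 0.39 at 2 d, and 17 of 79 were called higher and 0 lower, where 1.76% of all tested probes were higher. The other selection was of probes at -0.6 or lower at 1 d, 3 d and 4 d with ASP. A value on every array and the same limit on α-MSH were required. These 33 probes had a median of -0.86 at 2 d, and 21 of 33 were called lower, where 1.2% of all were. These differences between selections were not tested.

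With α-MSH at 3 h, 1 d and 2 d, whose ratios had no part in the selection beyond being present, the 52 probes lay near the bulk. The median of the 52 was 0.03 at 3 h, 0.05 at 1 d and 0.04 at 2 d, and that of the 18694 probes 0.04, 0.04 and 0.00. Limma called 0 of the 52 at each of these times, as it called 0 of all tested probes. At an unadjusted p under 0.05 there were 0 of 52 at 3 h, 2 higher at 1 d and 1 higher at 2 d, against 1.22% lower and 0.885% higher of all probes at 1 d and 1.15% and 1.11% at 2 d. Fits of single arrays also called 0. At 3 h the α-MSH replicates correlated across probes between -0.81 and 0.08. Some replicates of 3 h thus ran opposite to each other, and opposite values cancel in the mean. The correlations were between -0.05 and 0.03 at 1 d and between 0.00 and 0.11 at 2 d. At these 2 times the replicates shared little or no pattern, whereas those of ASP at 2 d correlated between 0.28 and 0.44. A count of 0 called therefore does not show that the probes did not respond. By the ranges of their experiment numbers in the authors' database the α-MSH arrays were split into 3 runs, named A to C here. At 2 d the mean of the 52 was 0.07 in run A (1 replicate) and 0.02 in run B (2 replicates). At 1 d it was 0.04, 0.01 and 0.07 in runs A, B and C, and at 3 h 0.03, -0.03 and 0.07.

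The probe with the highest value at 2 d of α-MSH was 1765579_1, at 0.60, 0.59 and 0.17, a mean of 0.45 that did not pass (limma adjusted p = 1). At ASP 2 d it stood at -0.85, -0.61 and -0.59. The replicates of the 2 drugs therefore lay on opposite sides of 0 in this probe. At 3 d and 4 d of α-MSH, which the selection limited, 44 of the 52 had a mean above 0, with a median of 0.17 compared with 0.05 over the 18694 probes. The lowest was -0.20 and the highest 0.39. Limma called 0 of the 52 at 3 d and 0 at 4 d; 17 and 9 of all 38430 tested probes were lower and higher at 3 d, which is 0.0442% and 0.0234%. At an unadjusted p under 0.05 there were 9 higher and 1 lower of the 52 at 3 d, where 3.42% of all tested probes were higher and 1.81% lower. At 4 d there were 7 higher and 0 lower, where 3.4% of all were higher and 1.62% lower. These times were used in the selection, so nothing is read from the counts.

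Set directly against α-MSH at 2 d, all 52 probes were lower with ASP, by a median of 0.49 on the log2 scale. Limma called 4 of the 52 lower with ASP, where it called 0.253% of all 33211 tested probes lower, and 23 of 52 passed an unadjusted p of 0.05, compared with 4.7% of all. The 4 were 1765579_1, 1784268_1, 1776284_1 and 1776151_1, with differences of -1.14, -0.82, -1.01 and -1.14 and limma adjusted p of 0.0091, 0.018, 0.026 and 0.042. Without α-MSH replicate 1 or 2 none of the 52 passed, where 0.0452% and 0.0612% of all tested probes were called lower. Without α-MSH replicate 3 there were 2, where 0.159% of all were. Without ASP replicate 2 or 3 there was 1, where 0.146% and 0.141% of all were. Without the 1 d array there were 6, where 0.397% of all were. With the spread of the 2 groups compared alone there were 0, as there were 0 of all tested probes. The experiment numbers of all ASP arrays lay in another range than those of the α-MSH arrays. This was taken as another run, though no label names a run. The doses also differed, so that drug, dose and run cannot be told apart in this difference.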

How the data were processed

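RNA from treated and untreated cells was coupled to Cy3 or Cy5 and hybridised together, per the labels' protocols. The deposited values were taken as log2 ratios of treated over untreated. How the authors scanned, filtered or normalized the arrays is not given in the sources used here. Channel intensities played no part.

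Each array was centred on its median over its probes. From each probe its dye effect was subtracted, estimated for each drug from the difference between dye orientations over all times. Each pair of arrays then gave 1 mean. Pairing followed repeat numbers for ASP and database numbers for α-MSH, and neither is stated to be the true pairing. All 30 replicates entered a single linear model (limma 3.58.1, R 4.3.3, empirical Bayes), probes with at least 2 replicates in a group were tested, and p-values were adjusted by the Benjamini-Hochberg method over all of them. The fit was tested on simulated data. P-values measure the spread between these replicates of a single cell line.

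Probes named are the 10 deepest at 3 d and 4 d, the 5 lowest and 5 highest at ASP 2 d, up to 10 called at ASP 2 d by smallest p, and the 3 on each side of the threshold. The probes and these rules were chosen with earlier results of these data known. Gene and marker lists and promoter motifs were not used, since no table here links them to probes. Alternatives were other centrings, a lowess removal of dye bias, single arrays, other pairings, other estimates of the spread, and each replicate left out.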

Additional observations from a re-analysis of the deposited data

Results flagged for a closer look

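In a group of 4 or more arrays, a value far from the others was looked for in the median of the 52 probes, in the array medians of the ASP groups and in the named probes at ASP 2 d, 35 sets of arrays in all. Chance gives about 1 in 20, and 5 were found. At ASP 1 d the array with treated RNA in Cy5 of replicate 1 had a median of the 52 probes of 0.83 after removal of the dye effect, while the other 5 arrays lay between -0.48 and -0.21. The same array had a median of all its values of -1.44 in Cy5 over Cy3 orientation, while the others lay between -0.37 and -0.06. At α-MSH 3 d an array with treated RNA in Cy5 had a median of the 52 probes of 0.50, while the others lay between -0.06 and 0.13. At ASP 2 d the array with treated RNA in Cy5 of replicate 1 was far from the others in probe 1778429_1, at -1.72 against -0.69 to -0.35, and in probe 1765579_1, at -1.13 against -0.70 to -0.52. At 2 d the log ratio with ASP was lower than that with α-MSH in 4 of the 52 probes by limma, where 0.253% of all tested probes were. Without α-MSH replicate 1 or 2 it was lower in 0 of the 52, where 0.0452% and 0.0612% of all were. With the compared groups alone 0 of the 52 and 0 of all were called, and drug, dose and run cannot be told apart.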

How the results depend on the processing

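Which probes were selected depended on the rule, on the centring and on the use of both dye orientations more than on most single replicates. In place of 52 there were 135 and 25 with late thresholds of -0.5 and -0.7, 25 and 86 with limits of 0.2 and 0.4 at 3 h and 1 d, 29 without centring (24 of them among the 52), 22 without the ASP 1 d array of lowest median, and 81 and 34 when arrays with treated RNA in Cy5 or in Cy3 alone were used (5 and 2 among the 52). With arrays centred on the 18694 probes there were 38, of which 26 were among the 52, and with the dye bias removed by lowess 44, of which 33 were. Leaving out an ASP replicate gave between 21 and 69, with 21 without replicate 1 of 1 d. The centring on the 18694 probes and the omission of the array were added after the data were seen.

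The count of 15 called lower at ASP 2 d lay within 1.5 times under 12 of 15 alternatives; it was 9 with ASP replicates alone, 0 with those of the group alone and between 8 and 11 with a replicate left out. All 15 were also called under 9 of the alternatives. Of all tested probes, 0.352% were called lower with ASP replicates alone and between 0.713% and 1.07% with a replicate left out. The count of 4 lower with ASP than with α-MSH at 2 d was 7 without centring, 8 with arrays centred on the 18694 probes, 1 with pair means only, 7 among the 18694 probes, 0 with the groups compared alone, and between 0 and 3 with a replicate left out. Of all tested probes, 0.518%, 0.62%, 0.199%, 0.669% and 0% were called lower in that order, and between 0.0452% and 0.233% with a replicate left out. The median at 2 d, -0.47 in the fit, lay between -0.54 and -0.42 under its 15 alternatives. Without removal of the dye effect it was -0.55 for the average of both dye orientations, -0.61 with treated RNA in Cy5 only and -0.55 with it in Cy3 only. The mean of the 52 for α-MSH at 3 h, 0.02, was -0.03 within run B. No alternative gave a call for α-MSH at 3 h, 1 d or 2 d, or a higher call at ASP 2 d. With the pair number as a replicate block the count at ASP 2 d was 15, where 1.14% of all tested probes were called lower. Same-numbered replicates of different groups deviated together with a median correlation of 0.017 (range -0.289 to 0.293). For other numbers the median was -0.007 (range -0.368 to 0.365). These values pool both drugs, so a pairing among the ASP times alone was not tested. The cause of these changes was not tested.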
